A study of Arabidopsis thaliana with 4 samples.

Results

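Of the defence-linked genes of Arabidopsis, 10 were followed by locus identifier through tables of genes that increased in leaf explants on callus inducing medium: PAD3, CYP71A12 and CYP71A13 of camalexin synthesis, FMO1 and UGT76B1 of systemic resistance, the pathogenesis-related genes PR1 and BGL2, the receptor-like kinase gene FRK1, the malate transporter gene ALMT1 and the senescence marker SAG13. They are 10 of the 2773 genes in the deposited lists. The lists of both genotypes hold 7 of them, and PR1, BGL2 and UGT76B1 are in that of lbd16-2 alone. They were chosen with their levels and folds known, so the values below are descriptions without a test. Explants were the first pair of leaves of Col-0 wild type or of the LBD16 mutant lbd16-2, cut from 12-day-old plants grown at 22 °C with 16 h of light, and kept in the dark on the medium for 0 or 4 days. LBD16 is a transcription factor of lateral root and callus formation that auxin induces, and the medium supplies auxin and cytokinin. Total RNA was sequenced from whole explants at day 0 and from explants with callus at day 4, as 1 library for each of the 4 groups. The number of explants or plants pooled is not stated in the labels.

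Camalexin is the main phytoalexin of Arabidopsis, an indole compound made from tryptophan through a chain of cytochrome P450 enzymes when pathogens or cell damage are sensed. Salicylate is the hormone of resistance to pathogens that feed on living cells, and N-hydroxypipecolate, made by FMO1, is the signal that spreads this resistance through the plant. Genes of both branches are low in healthy leaves, and several of them, with FRK1, are used as markers of immune activation.

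With 1 library a group, no difference has a replicate check. The 95% intervals given in parentheses come from read counting alone and set one library against another. Levels are normalised reads, meaning the reads of a gene divided by its library's size factor. These factors were 1.43 and 1.41 at day 0 and day 4 for wild type and 1.08 and 1.68 for the mutant. A gene without reads is set against a floor of 3 reads, equal at day 0 to 2.09 normalised reads for wild type and 2.78 for the mutant. Values written as at least come from that floor. They are not 95% limits, which were lower and follow in parentheses. LBD16 transcripts were counted in every library, with 20.9 and 981 normalised reads for wild type at day 0 and day 4 and 34.3 and 518 for the mutant, so read counts over the whole gene do not check the label. Where the mutation lies in the gene is not stated in the labels. The lists hold genes over 8-fold higher at day 4 than at day 0 after the authors added 1 normalised read to each level, and no other gene is covered here. Folds below are without that addition. None of 8 leaf photosynthesis markers was listed, and their levels were not analysed here.

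All 10 genes were in the lbd16-2 list, which held 9.18% of the 24518 genes tested there, and 7 were in the wild-type list, which held 8.91% of 24442. Both lists shared 1657 genes, 6.78% of those tested in wild type. Since the genes were chosen from these lists, nothing is read from these shares. In the authors' deposited table ALMT1 alone of the 7 genes with a wild-type FDR had one under 0.05 (0.0229), and 1.03% of genes tested were both in the wild-type list and under that limit. The mutant's FDR met it for ALMT1 (0.00275), PAD3 (0.00403), SAG13 (0.00749) and CYP71A13 (0.0177), and 0.824% of genes tested were both in the lbd16-2 list and under it. The FDR of genes outside the lists was not analysed here. How such values were obtained without replicates is not stated in the labels.

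PAD3 was lower in lbd16-2 leaves than in wild-type leaves before culture and higher after it. PAD3 (AT3G26830), the P450 of the last steps to camalexin, stood at 60.0 normalised reads before culture and 788 after it in wild type, against 3.71 and 2146 in the mutant. The day 0 level was 16.2-fold lower in the mutant (6.09 to 60.7), from 4 reads where 64.7 would stand at the wild-type level. At day 4 the mutant had 2.72 times the wild-type level (2.55 to 2.91). The increase over 4 days was therefore 13.1-fold for wild type (10.5 to 16.6) and 578-fold for the mutant (226 to 2124). In bulk tissue, fewer cells that express a gene and less RNA per cell cannot be told apart, here and for every gene below.

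CYP71A13 crossed between the genotypes in the same way. CYP71A13 (AT2G30770), which turns indole acetaldoxime into the nitrile that leads to camalexin, stood at 16.7 normalised reads before culture and 299 after it in wild type, against 0 and 497 in the mutant. Before culture it was at least 6.02-fold lower in the mutant (95% limit 4.53), with no read where 18.1 would stand at the wild-type level. After it the ratio of mutant to wild type was 1.66 (1.48 to 1.88). The increase was 17.8-fold for wild type (11.8 to 28.1) and at least 179-fold for the mutant (95% limit 145).

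CYP71A12 had no low level in the mutant at day 0 and the largest day 4 ratio among the 7 genes with values for both genotypes. CYP71A12 (AT2G30750), a close relative that can carry out the same reaction and acts mainly in roots, stood at 9.77 normalised reads before culture and 146 after it in wild type, against 13.0 and 822 in the mutant. The day 0 values come from 14 reads in each library, and their ratio of 1.33 (0.587 to 3.01) had an interval that included 1. The day 4 ratio was 5.64 (4.87 to 6.56). The increase was 14.9-fold for wild type (8.69 to 27.8) and 63.3-fold for the mutant (37.6 to 116), which is 4.24 times as large (2.01 to 8.89).

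Because reads of such close copies may be assigned to the wrong one, the pair was compared by sequence. The coding sequences, 1494 bases each, were identical at 90.4% of positions, but only 0.770% of the stretches of 50 exon bases of one occurred exactly in the other. How reads that match both were handled is not stated in the labels, so the split of reads between them is uncertain. Both lie on the minus strand of chromosome 2, with CYP71A12 at chr2:13099486-13101371 and CYP71A13 at chr2:13109909-13111988 in TAIR10.1. The stretches upstream of their coding starts are shown because the genes share much of their coding sequence but differed at day 0. They are 200 bases each, from RefSeq's TAIR10.1 sequence, minus strand, chr2:13101422-13101621 for CYP71A12 and chr2:13112039-13112238 for CYP71A13. The last 50 bases before the coding start are left out, as no untranslated region is annotated for either gene. Capitals mark TATAAATA, chosen after the sequences were seen, and TGACG, the latter being the core of sites bound by TGA factors, the salicylate-linked bZIP proteins.
CYP71A12: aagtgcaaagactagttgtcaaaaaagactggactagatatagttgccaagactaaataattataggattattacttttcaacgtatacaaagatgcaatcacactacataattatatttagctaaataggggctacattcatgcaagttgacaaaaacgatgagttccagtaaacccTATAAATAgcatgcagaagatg
CYP71A13: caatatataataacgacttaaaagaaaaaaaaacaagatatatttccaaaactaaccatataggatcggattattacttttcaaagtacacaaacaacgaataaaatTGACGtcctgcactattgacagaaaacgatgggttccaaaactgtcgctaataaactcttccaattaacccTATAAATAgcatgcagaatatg
Over the aligned upstream stretches 61.5% of columns were identical. TATAAATA began 72 bases before the coding start in both, while TGACG was found in CYP71A13 alone, 143 bases before it. In the 250 bases before the annotated gene start of 27443 protein-coding genes, TATAAATA was held by 9.81% and TGACG by 18.6%. Both strands were searched, at any position. Where an untranslated region is annotated that window lies before it, so these shares are for a partly different region. Neither is rare there, and a match is a description, not a site.

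**Figure D1:**
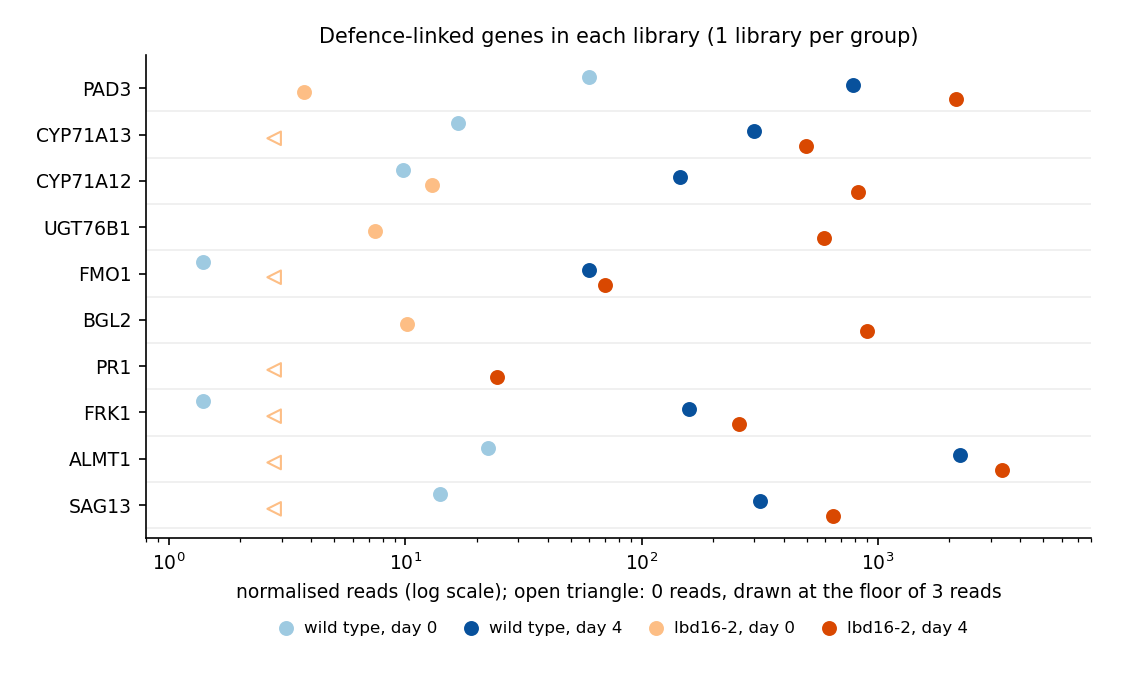
Normalised reads (log axis) of each of the 10 genes in the 4 libraries, 1 point per library, with open triangles for libraries without a read, drawn at the floor of 3 reads. In lbd16-2 PAD3 lies at 3.71 at day 0, left of wild type at 60.0, and at 2146 at day 4, right of wild type at 788. UGT76B1, BGL2 and PR1 have lbd16-2 points only.

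Of the systemic resistance genes, FMO1 did not differ between the genotypes beyond counting error at day 4. FMO1 (AT1G19250), the flavin monooxygenase that makes N-hydroxypipecolate, had 2 reads before culture in wild type and 0 in the mutant, and reached 60.1 and 70.2 normalised reads after it. The day 4 ratio of 1.17 (0.875 to 1.56) had an interval that included 1, and both day 0 libraries were at or under the floor, so no day 0 ratio is given. The increase was 43.1-fold for wild type (11.6 to 362) and at least 25.2-fold for the mutant (95% limit 20.2). These values give no order of the genotypes.

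UGT76B1 (AT3G11340), a glucosyltransferase that conjugates salicylate and N-hydroxypipecolate, was in the lbd16-2 list alone. In the mutant it went from 7.42 to 592 normalised reads, 79.7-fold (40.3 to 185). Its wild-type levels were not analysed here. Its absence from the wild-type list says only that it did not pass the 8-fold limit there, and the same holds for the pathogenesis-related genes.

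Both pathogenesis-related members were also in the lbd16-2 list alone, at very different levels. BGL2 (AT3G57260), a secreted glucanase also called PR2 that attacks fungal walls, went from 10.2 to 903 normalised reads in the mutant, 88.5-fold (49.3 to 178). PR1 (AT2G14610), the usual marker of salicylate response, had no read before culture in the mutant and 24.4 normalised reads after it, from 41 reads. That is at least 8.76-fold higher (95% limit 6.81). In the authors' deposited table the mutant's FDR was 0.0534 for BGL2, 0.107 for UGT76B1 and 1 for PR1.

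FRK1 was higher in the mutant at day 4 and close to absent before culture. FRK1 (AT2G19190), a receptor-like kinase gene induced by bacterial flagellin, had 2 reads before culture in wild type and 0 in the mutant. After it the levels were 159 and 259 normalised reads, a ratio of 1.62 (1.38 to 1.92). The increase was 114-fold for wild type (31.2 to 948) and at least 92.9-fold for the mutant (95% limit 75.3). Only the day 4 level thus gives an order. FRK1 is a reporter of immune signalling through WRKY factors, which bind the W-box, and its promoter is shown for the W-boxes it holds. The 250 bases before its annotated start lie at chr2:8329945-8330194 on the minus strand of TAIR10.1, from RefSeq. Capitals mark TTGACT and TTGACC, which began 47 and 29 bases before the start.
FRK1: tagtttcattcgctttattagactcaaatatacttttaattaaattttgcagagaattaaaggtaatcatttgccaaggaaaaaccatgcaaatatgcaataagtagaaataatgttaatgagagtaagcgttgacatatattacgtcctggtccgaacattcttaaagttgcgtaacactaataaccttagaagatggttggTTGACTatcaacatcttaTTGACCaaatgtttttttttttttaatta
In these windows, searched on both strands for TTGACC or TTGACT, FRK1 was the 1 gene of the 10 with a W-box. At least 1 was held by 28.4% of all 27443 promoters and by 32.6% of those of the 1628 shared protein-coding genes, and 2 or more by 6.18% of all. TGACG, which shares the letters TGAC with the W-box, was found in CYP71A13 alone of the 10. No match says only that these letters are not in this window.

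ALMT1 reached the highest day 4 level of the group and was not detected in the mutant before culture. ALMT1 (AT1G08430), which releases malate from roots under aluminium stress and toward soil bacteria, stood at 22.3 normalised reads before culture and 2219.7 after it in wild type, against 0 and 3344 in the mutant. Before culture it was at least 8.02-fold lower in the mutant (95% limit 6.16), with no read where 24.1 would stand at the wild-type level. After it the ratio was 1.51 (1.44 to 1.57). The increase was 99.4-fold for wild type (70.3 to 146) and at least 1202-fold for the mutant (95% limit 977).

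SAG13 followed a course similar to that of CYP71A13 over the 4 libraries. SAG13 (AT2G29350), a short-chain dehydrogenase gene switched on in senescing and dying leaf tissue, stood at 14.0 normalised reads before culture and 316 after it in wild type, against 0 and 645 in the mutant. Before culture it was at least 5.01-fold lower in the mutant (95% limit 3.71), and after it the ratio was 2.04 (1.83 to 2.29). The increase was 22.6-fold for wild type (14.5 to 37.4) and at least 232-fold for the mutant (95% limit 188).

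**Figure D2:**
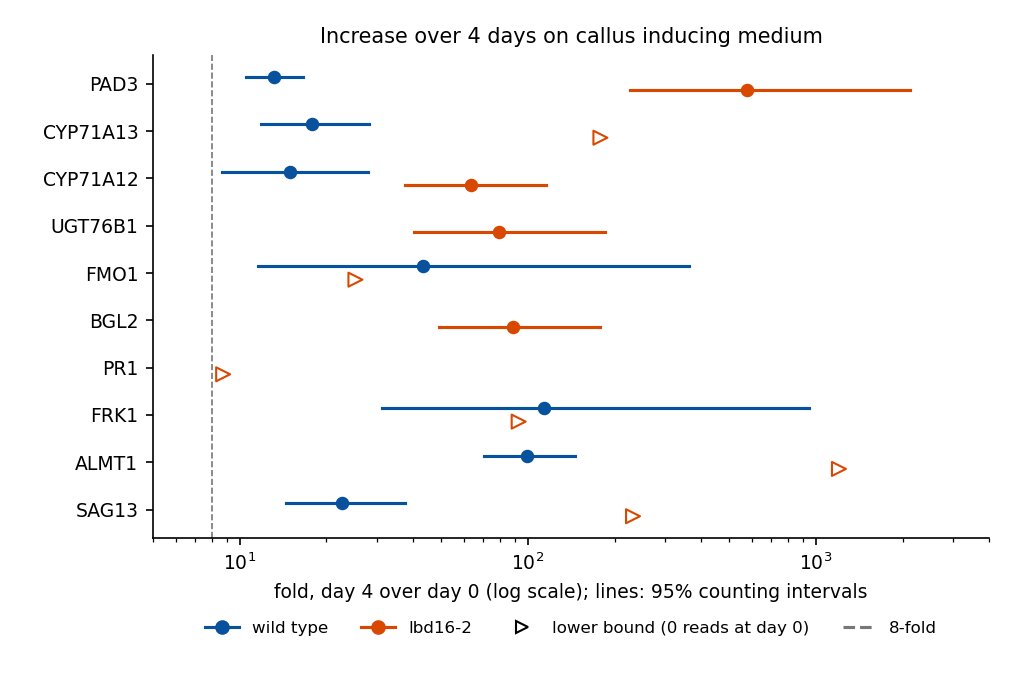
Fold of day 4 over day 0 (log axis) for each gene, wild type in blue and lbd16-2 in orange, with 95% counting intervals as lines, open triangles for lower bounds where day 0 had no read and a dashed line at the 8-fold limit of the lists. For PAD3 the intervals lie apart, from 10.5 to 16.6 (wild type) and from 226 to 2124 (lbd16-2), while for FMO1 and FRK1 the lbd16-2 bound falls inside the wild-type interval.

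Per kilobase of annotated exon, ALMT1 and PAD3 had the highest day 4 levels in both genotypes. For wild type the normalised reads per kilobase were 1132 for ALMT1, 444 for PAD3, 231 for SAG13, 199.9 for CYP71A13, 97.6 for CYP71A12, 59.0 for FRK1 and 31.4 for FMO1, and each neighbouring pair differed beyond counting error. For the mutant the order in normalised reads per kilobase was ALMT1 (1705), PAD3 (1208), BGL2 (611), CYP71A12 (549.9), SAG13 (472), UGT76B1 (342), CYP71A13 (333), FRK1 (95.8), FMO1 (36.6) and PR1 (27.0). There UGT76B1 and CYP71A13, and FMO1 and PR1, did not differ beyond counting error. CYP71A13 stood above CYP71A12 in wild type, with a ratio per kilobase of 2.05 (1.73 to 2.43), and below it in the mutant. The CYP71A models hold coding bases only, so their values per kilobase may not compare evenly with those of genes with annotated untranslated regions. The direction of any such bias was not tested.

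At day 4 all 7 genes with values for both genotypes had a higher level in the mutant, as did 49.6% of the 1657 shared genes. CYP71A12, PAD3 and SAG13, 3 of the 7, were over 2-fold higher there, as were 14.4% of the shared genes. The median day 4 difference, mutant minus wild type on the log2 scale, was 0.74 over the 7 genes and -0.01 over the shared genes. FMO1 was not higher beyond counting error. The 7 genes were chosen with these levels known, so the counts and the median support nothing.

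At day 0 none of the 7 was over 2-fold higher in the mutant, as 9.78% of the shared genes were. FMO1 and FRK1 could not have been, since both of their day 0 libraries were set to the floor. A count of 0 of 7 is also near that share, so nothing is read from it. Of the 7, 5 had a mean day 0 level of at least 5 normalised reads over both genotypes, and 4 of these, PAD3, ALMT1, CYP71A13 and SAG13, were over 4-fold lower in the mutant, beside 3.22% of 652 shared genes at such levels. SAG13 passes the 4-fold limit only at the floor, as its 95% limit was 3.71. All 4 pass that minimum through wild type alone, and they were chosen with these values known, so the count supports nothing. The 652 shared genes lay the other way, with a median day 0 ratio of mutant to wild type of 1.38. Relative to the 376 shared genes that averaged 20 normalised reads or more at day 0, whose median log2 difference was 0.47, the day 0 differences were -4.49 for PAD3, -3.48 for ALMT1, -3.06 for CYP71A13, -2.80 for SAG13 and -0.06 for CYP71A12. The sign of the CYP71A12 difference thus depends on that scaling, and the others keep theirs. Of the 416 shared genes with at least 20 reads in wild type at day 0, 4 had none in the mutant. Of these, 3 were ALMT1, CYP71A13 and SAG13, the last of them at that minimum. This filter too rests on wild type alone, and the genes were chosen with these values known, so that count supports nothing either.

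The day 0 level made up most of the larger fold of the mutant for PAD3, CYP71A13, SAG13 and ALMT1. These 4 were singled out above for a low day 0 level in the mutant. A large day 0 part follows from that choice, so nothing is read from it. With libraries without a read set to the floor, the log2 fold of PAD3 was larger in the mutant by 5.46, the sum of a day 4 difference of 1.45 and the size of a day 0 difference of -4.02, which is 73.5% of it. For CYP71A13, SAG13 and ALMT1 the day 0 part was 77.9%, 69.3% and 83.6%, each resting on the floor. For CYP71A12 the day 4 difference of 2.49 exceeded the log2 fold difference of 2.08.

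Without a pseudocount, and with genes lacking reads at day 0 at their bound, the fold was over 2-fold larger in the mutant for 5 of the 7, all but FMO1 and FRK1, beside 10.2% of shared genes. The ratio of folds in the authors' deposited table, which adds 1 normalised read to each level, gave all 7, beside 17.7%. By that deposited ratio PAD3, ALMT1, SAG13 and CYP71A13 held ranks 3, 4, 5 and 6 of the 1657 shared genes on the mutant's side, after bZIP70 and GSTL1. ALMT1, SAG13 and CYP71A13 had no read in the mutant at day 0, so their ranks rest on the 1 normalised read added. All members were chosen with their folds known, so these counts and ranks support nothing.

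**Figure D3:**
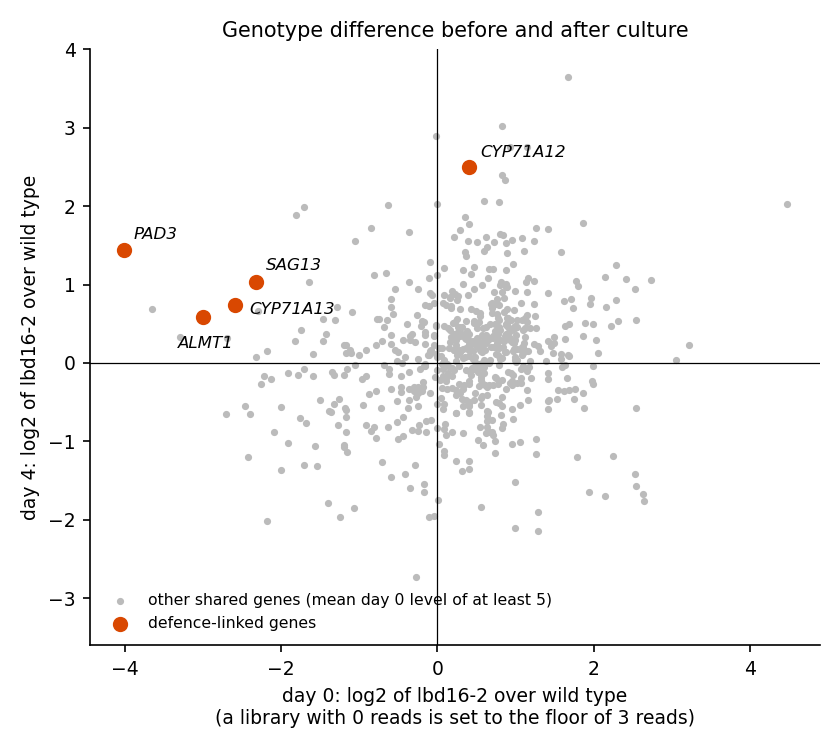
Log2 ratio of lbd16-2 to wild type at day 0 (horizontal axis) and at day 4 (vertical axis) for shared genes with a mean day 0 level of at least 5 normalised reads, in grey, and the 5 defence-linked genes among them, in orange, with libraries without a read set to the floor of 3 reads. PAD3, ALMT1, CYP71A13 and SAG13 lie in the upper left, lower at day 0 and higher at day 4 in lbd16-2, where 4.45% of these shared genes were over 2-fold lower at day 0 and higher at day 4, and CYP71A12 lies at 0.41 and 2.49.

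The other genes of these pathways were listed about as often as genes in general. Of 84 further genes in lists of camalexin and indole, salicylate, systemic resistance, pathogenesis-related, jasmonate and ethylene, and pattern-triggered genes, 5 were in both lists, 5 in that of the mutant alone, 0 in that of wild type alone and 74 in neither. Those in both lists are 5.95% of the 84, beside 6.78% of all genes tested, and those in the lbd16-2 list 11.9%, beside 9.18%. Of 27 camalexin and indole genes 4 were shared and 3 listed for the mutant alone. The lbd16-2 list thus held 25.9% of them, but 3 of the listed genes are members, chosen for being listed. GSTU4, a glutathione transferase gene and the shared one that is no member, stood at 53.7 normalised reads before culture and 1318 after it in wild type, against 8.35 and 1647 in the mutant. It was 6.44-fold lower in the mutant at day 0 (3.22 to 14.6), and its day 4 ratio was 1.25 (1.18 to 1.33), so it crossed as PAD3 did. Listed for the mutant alone were GSTF6, a glutathione transferase gene linked to camalexin synthesis and nearly identical to GSTF7, so that their split of reads is uncertain (143 to 5439.6 normalised reads), the berberine-type oxidase gene AT1G26380 (9.28 to 224) and ANAC042, a regulator of camalexin synthesis (3.71 to 76.1). CYP79B2 and CYP79B3, which make the indole acetaldoxime upstream, and the regulators WRKY33 and MYB51 were in neither list.

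Of 25 salicylate genes UGT76B1 and DLO1, a salicylate hydroxylase gene, were listed, both for the mutant alone, a share near the 9.18% of all genes tested. DLO1 had no read there before culture and 70.2 normalised reads after it. The synthesis gene ICS1, the regulators NPR1, EDS1 and PAD4 and 19 others were in neither list. Of 6 systemic resistance genes, AZI1, a lipid-transfer-like protein gene of priming, was shared beside FMO1. AZI1 was higher in the mutant before culture, at 32.5 against 11.9 normalised reads (2.74, 1.49 to 5.21), and reached 1682 normalised reads in wild type and 1961 in the mutant. Of 6 pathogenesis-related genes PR1 and BGL2 were listed, and PR5 was not. Of 18 pattern-triggered genes FRK1 was shared and NHL10 (1.86 to 61.2 normalised reads) was listed for the mutant alone. In the lbd16-2 list stood 50% of the systemic resistance, 33.3% of the pathogenesis-related and 11.1% of the pattern-triggered genes. Each of these lists holds members, which were chosen for being listed, so nothing is read from these shares.

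The 3 listed jasmonate and ethylene genes of 12, PR3, PR4 and ERF1, were shared and were lower in the mutant at day 4. They are 25% of that list, beside 6.78% of all genes tested. That list was chosen with earlier results of these data known, so nothing is read from its share. The chitinase gene PR3 reached 2958 normalised reads in wild type and 2248 in the mutant (0.760, 0.727 to 0.794). The chitin-binding protein gene PR4 reached 9531 and 4160.3 (0.437, 0.424 to 0.449), and the ethylene response factor gene ERF1 reached 347 and 111 (0.321, 0.269 to 0.380). Before culture PR4 was 5.36-fold lower in the mutant, at 65.9 against 353 normalised reads, so it was lower at both days. PDF1.2a, the usual marker of this branch, was in neither list.

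**Figure D4:**
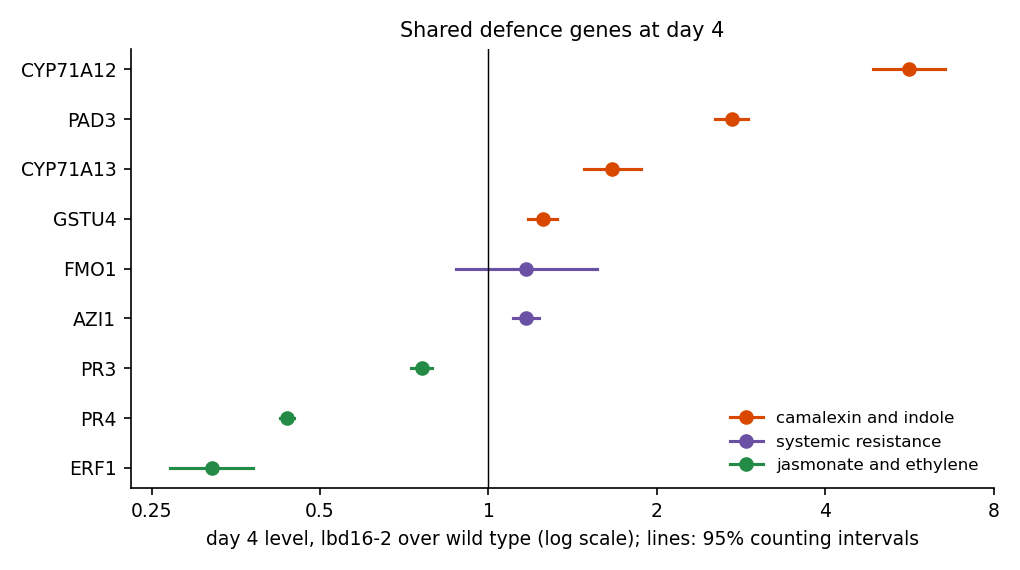
Day 4 level of lbd16-2 over wild type (log axis) for the shared genes of the camalexin and indole, systemic resistance, and jasmonate and ethylene lists, with 95% counting intervals as lines. The camalexin genes lie between 1.25 and 5.64, FMO1 and AZI1 near 1.17, and PR3, PR4 and ERF1 between 0.321 and 0.760.

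Genes with the most similar course over the 4 libraries were sought for each of the 7 genes, by the Euclidean distance of log2(normalised reads + 1) levels centred on each gene's mean. The search covered 1300 genes (1301 for FMO1) with a mean day 4 level of at least 100 normalised reads. CYP71A13 and SAG13 were each other's nearest, at a distance of 0.44. PAD3 was nearest to GSTL1 (0.53), a glutathione transferase gene at 8.37 normalised reads before culture and 107 after it in wild type, against 0 and 433 in the mutant. CYP71A12 was nearest to AT5G59390, an XH/XS domain gene (0.33), FMO1 to AT5G12880, a proline-rich protein gene (0.18), and FRK1 to ABCG33, a transporter gene (0.17). ALMT1 had no close match, its nearest being the nitrate transporter gene NRT1.8 at 1.41.

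Markers of root cell types were listed beside these genes, and their part in the results was not tested. Of 6, WER, RHD6, SMB and MYB36 were in both lists, COBL9 in that of the mutant alone and CASP1 in neither. The 4 shared markers summed to 2.09 normalised reads before culture and 1136 after it in wild type, against 0 and 806 in the mutant. The lower sum of the mutant at day 4 came mainly from SMB, a root cap regulator, at 369 normalised reads against 716 in wild type. Of the 4 markers 2 were higher in the mutant at day 4, WER at 88.6 against 80.0 normalised reads and RHD6 at 340.1 against 328, neither beyond counting error.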

How the data were processed

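RNA sequencing of 4 libraries, 1 per genotype and day, was analysed from 4 deposited tables of increased genes. The submitters' processing notes name STAR, Cufflinks, DESeq, FastQC and Trim Galore, and TAIR10 as the genome. Versions, settings, strand and multiply matching reads are not described there. The authors deposited levels in log2 units. Undoing log2(x + 1) and multiplying by 1 size factor per library gave whole reads within 0.001 for 100% of values, which is how their scale was inferred. Deposited log2 folds equal differences of levels. The authors' deposited table of shared genes also holds a ratio of folds, wild type over lbd16-2. The authors' p-value and FDR columns were used as deposited, and the numbers tested were inferred as those that made ratios of both give the most whole ranks (53.3% for wild type and 54.4% for lbd16-2, against 4.96% and 4.25% for the next best).

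Recovered reads gave normalised reads, linear folds without a pseudocount, and exact binomial 95% intervals (Clopper-Pearson). For ratios of folds, intervals are normal in log units after adding 0.5 reads. Total depth is unknown, since only listed genes are given, and no test was made without replicates. Members and the 13 gene lists were chosen with earlier results of these data known. Named were all members, the listed genes of a list with up to 6 of them or otherwise the 4 highest at day 4, and the gene nearest to each member. Genes named as unlisted, GSTF7, bZIP70 and genes in counts of up to 5 fall outside that rule. All 2773 identifiers matched RefSeq's TAIR10.1 annotation, whose coordinates and sequence stand on their own, as the tables hold none. Steps were tested on simulated data. Python 3.11.15, numpy 2.4.6, pandas 2.3.3, scipy 1.17.1, Biopython 1.88 and matplotlib 3.10.9 were used.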

Additional observations from a re-analysis of the deposited data

Results flagged for a closer look

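For 4 genes lbd16-2 was below wild type at day 0 and above it at day 4, each beyond counting error. Beside them, 4.45% of 652 shared genes were over 2-fold lower in lbd16-2 at day 0 and higher at day 4. Those 652 had a mean day 0 level of at least 5 normalised reads. All 4 genes pass that minimum through wild type alone and were chosen with these values known, so the count supports nothing. With 1 library per group, the difference between the days was not tested. Over wild type, the day 4 level in lbd16-2 was 2.72 for PAD3, 1.66 for CYP71A13, 2.04 for SAG13 and 1.51 for ALMT1. At day 0 PAD3 was 16.2-fold lower, and the other 3, without a read in lbd16-2, were at least 6.02-fold, 5.01-fold and 8.02-fold lower in the same order. Those values rest on the floor of 3 reads, and the 95% limits were 4.53, 3.71 and 6.16. The lbd16-2 day 0 library had the smallest size factor, 1.08.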

How the results depend on the processing

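No alternative replaces a replicate, and no library could be left out, as each group had 1. No paired analysis was possible because each group had 1 library without a replicate number. With the authors' FDR under 0.05 added to the fold limit, the lists held 1 of the 10 genes in wild type, 4 in lbd16-2 and 1 in both, where the fold limit gave 7, 10 and 7. A 16-fold limit on the authors' deposited folds, which add 1 normalised read, gave 5, 10 and 5. A day 4 level of at least 100 normalised reads gave 6, 8 and 6. The share of all genes tested that meets either limit was not analysed here, so nothing is read from these counts. The number over 2-fold higher in lbd16-2 at day 4 was 3, and 2 with reads thinned to 1 depth. The number with a fold over 2-fold larger in lbd16-2 was 5, then 6 with a pseudocount of 5 normalised reads and 7 by the deposited ratio, an alternative chosen after seeing the data. None was over 2-fold higher in lbd16-2 at day 0 under any of the 4 alternatives tried. As above, nothing is read from these counts. Centring removes the median log2 difference of the shared genes, 0.47 at day 0 and -0.01 at day 4, and turned the day 0 difference of CYP71A12 from 0.41 to -0.06, within counting error both times. The lower bound on the ratio of folds, mutant over wild type, also changed side for FRK1, from 0.815 to 1.14 with centring, 1.07 with thinning and 2.05 with the pseudocount, and for FMO1, from 0.585 to 1.48 with the pseudocount, so neither gives an order. Of 108 values of single genes under centring, thinning and the pseudocount, 98 stayed within their counting interval or bound, 10, all with the pseudocount, moved out of it, and 0 of those beyond counting error reversed. At day 0, 5 of the 7 genes had no read in lbd16-2, as had 34.8% of the 1657 shared genes. Total depth is unknown, so whether depth accounts for these genes without a read was not tested.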

Other observations

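Relatives of these genes were listed too. Of 16 CYP71A genes 4 were in both lists, or 25%, beside 6.78% of all genes tested, and 2 of the 4 had been chosen for being listed. Besides CYP71A12 and CYP71A13 these were CYP71A16, with 154 normalised reads at day 4 for wild type and 76.7 for lbd16-2 (0.499, 0.399 to 0.624), and CYP71A27, with 10.6 and 14.9. CYP71A14 was listed for wild type alone, with 64.4 and 13.7 (0.212, 0.128 to 0.339). Of 12 reductase genes around SAG13, the tropinone reductase gene AT2G29330 was shared too, without reads before culture and with 38.9 and 33.9 normalised reads after it. Of 13 malate transporter genes, AT1G08440 and AT2G27240 were shared with ALMT1, at 11.3 and 8.49 normalised reads after culture for wild type and 11.9 and 17.2 for lbd16-2. None of the other 5 genes of an aluminium and acid response list was listed.

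SAG29, NAC092 and WRKY6, the senescence genes with values for both genotypes besides SAG13, were not lower in lbd16-2 at day 0. SAG29, a sugar transporter gene of senescing leaves, stood at 17.4 normalised reads before culture and 2830.3 after it for wild type, against 26.9 and 1524 for lbd16-2. NAC092, a senescence regulator, stood at 21.6 and 1912, against 25.0 and 1789. WRKY6, listed for wild type alone, stood at 155 and 1731, against 285 and 2037, and SAG12, listed for lbd16-2 alone, reached 11.3 normalised reads there from none.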
